A study of Mus musculus with 8 samples.

Results

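Genes linked to fetal-like and injured epithelium were followed in Lgr4 null against wild-type intestinal crypts. The group has 8 members. Sprr1a, Anxa10 and Cldn4 were chosen because they were higher in null crypts in these arrays, and Anxa1, Clu, Ly6a, F3 and Mal because they are known markers of regenerating epithelium. Of the 8 genes, 7 were measured among 15123 genes in all. Ly6a had no probe among those used here and was not measured. For the 3 genes chosen on their values, values and errors are given with no test. The other 4 measured genes were tested within a fit over all 15123 genes.

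The study hybridised RNA of null and wild-type crypt cells together on 8 2-colour arrays, 2 for each of 4 groups. Crypts were taken at day 0, at day 0.5 or at day 1 of culture, and a further group at day 1 had been given LiCl. Lithium blocks GSK3, a kinase that marks beta-catenin for destruction, and in this way mimics a Wnt signal. The null mice carried the Lgr4/Gpr48 Gt allele back-crossed onto CD1, an outbred strain, and the wild-type mice had the CD1 background too. The allele, a gene trap by its symbol, is carried by the whole animal and not by the gut epithelium alone, and the labels give no age. Both sides of each array shared the culture time, and, by the sample labels, LiCl was on both sides of the LiCl arrays. The series text instead speaks of control cells there. Nothing in the labels ties the 2 arrays of a group to separate animals or cultures, so the p-values reflect only how far these arrays differ, which may be a technical spread.

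When the gut epithelium is damaged, surviving crypt cells can shut off adult stem cell genes for a time and switch on genes of the fetal gut. Clu, Ly6a and Anxa1 are the usual marks of that state in the mouse, and the co-activator YAP, which binds DNA through TEAD factors, has been tied to it. Lgr4 binds R-spondins, ligands that amplify the Wnt pathway, on which crypt stem cells and Paneth cells depend. Squamous genes such as Sprr1a and gastric genes such as Anxa10 are low in the healthy adult small intestine and are known from stressed or metaplastic epithelium.

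Each value is a log ratio, taken as log2, with null over wild type as the likely direction. The direction rests on channel 1 being null RNA in the labels and on the Paneth cell gene Lyz1, which lay between -4.26 and -3.17 on the 6 arrays without LiCl. Lgr4 itself was not analysed here, since no probe used carried its name. The LiCl arrays correlated below 0 with every other array over all probes (r from -0.493 to -0.0855 over 12 pairs), so their direction is not settled. Values with LiCl are as deposited unless given with the sign turned. The ratios were widest at day 1 (SD 0.473 and 0.441 over all probes) and narrowest with LiCl (0.283 and 0.248). The files gave ratios only, so neither signal over background nor a level in either genotype is known, the crypt identity of the cells could not be checked from marker levels, and 2 arrays a group limit the precision. In bulk RNA, fewer cells of a type and less RNA per cell cannot be told apart.

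At day 1 the ratios of Sprr1a, F3, Cldn4, Anxa10 and Mal were above 1 on both arrays. For 3 of these the choice of members fixed that direction, and the other 2, F3 and Mal, were 2 of the 4 measured marker genes, where 1.52% of all genes reached 1 on both arrays. F3, Mal and Anxa1 had both day 1 arrays above both day 0 arrays (24% of all genes), and F3 and Mal had both above the day 0.5 arrays (20.4%). Anxa1 was raised less, and Clu, a marker of injury-induced stem cells, did not pass the test. Of the 4 marker genes with a test, 3 passed at day 1, all higher in null crypts. The members were chosen with earlier results of these data known, so this count is not independent of the values. Over all genes, 20.5% passed in either direction at day 1 and 9.38% passed as higher.

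Sprr1a encodes a small proline-rich protein that is cross-linked into the cornified envelope of squamous cells. Its log2 ratio was -0.26 and -0.23 on the 2 arrays of day 0 and 0.09 and 0.32 at day 0.5. At day 1 it was 2.62 and 2.68. Both day 1 arrays stood far above all others, and the day 0 arrays lay just under 0. The fitted day 1 value was 2.65 ± 0.10, or 6.27-fold, the 8th highest of all genes, where ± is limma's standard error for a group of 2 arrays throughout. From day 0 to day 1 the ratio of Sprr1a moved by 2.89 ± 0.14.

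F3 encodes tissue factor, the cell-surface receptor that starts blood coagulation. Its log2 ratio was 0.33 and 0.34 at day 0 and 0.23 and 0.42 at day 0.5, then 1.96 and 2.14 at day 1. No day 1 array overlapped the earlier ones. The day 1 ratio was 2.05 ± 0.12, or 4.14-fold (limma, Benjamini-Hochberg adjusted p = 0.000123), and F3 ranked 20 among all genes. It passed under all 16 alternative settings run for day 1, with adjusted p from 2.42e-05 to 0.00658. Day 0 (0.33 ± 0.12, adjusted p = 0.246) and day 0.5 (0.30 ± 0.14, adjusted p = 0.452) did not pass.

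Between day 0 and day 1 the ratio of F3 rose by 1.72 ± 0.17 (limma adjusted p = 0.00287), a comparison in which 8.39% of all genes changed. Between day 0.5 and day 1 it rose by 1.75 ± 0.18 (adjusted p = 0.00932), where 1.99% of all genes changed. With 1 array left out the sizes stayed close while some calls were lost. The change from day 0 was 1.67 without day 0 replicate 1 and did not pass (adjusted p = 0.0569). The change from day 0.5 was 1.76 without either day 0 array (0.0536), 1.65 without day 0.5 replicate 1 (0.0528) and 1.98 without day 1 replicate 1 (0.130), and did not pass there. With arrays scaled to equal spread the changes were 1.37 (0.0578) and 1.52 (0.176).

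Mal encodes a small membrane proteolipid of lipid rafts that takes part in transport to the apical surface. It was the one measured member with 2 probes, and both gave the same order of days. Its first probe read 0.25 and 0.08 at day 0 and 1.06 and 1.31 at day 1, and its second 0.09 and 0.27 at day 0 and 1.64 and 1.87 at day 1. The mean of the probes was 0.17 and 0.18 at day 0, 0.63 and 1.05 at day 0.5, and 1.35 and 1.59 at day 1. The 3 groups did not overlap, and day 0.5 lay between the others.

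The day 1 ratio of Mal was 1.47 ± 0.13, or 2.77-fold (limma adjusted p = 0.000431), and passed under all 16 alternatives, with adjusted p from 0.00012 to 0.0179. At day 0.5 it was 0.86 ± 0.15, or 1.82-fold, and did not pass (adjusted p = 0.0780). It passed with the replicate block (0.83, adjusted p = 0.0375). With day 0.5 replicate 2 as a dye swap (0.84, adjusted p = 0.0199) or no dye term (0.84, adjusted p = 0.0147) it passed too. At day 0.5, 0 of the 4 marker genes passed in the main limma fit (1, Mal, at an unadjusted p under 0.05), where 0.436% of all genes did. The ratio of Mal rose by 1.30 ± 0.18 from day 0 to day 1 (limma adjusted p = 0.00811). Without any 1 of the 4 arrays concerned the change was 1.15 to 1.44 and did not pass, with adjusted p from 0.0534 to 0.0973. With arrays scaled to equal spread it was 1.04 (0.0511). From day 0 to day 0.5, where 0.132% of all genes changed, 0 of the 4 marker genes passed in limma (1, Mal, at an unadjusted p under 0.05).

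Anxa1 and Anxa10 are annexins, proteins that bind membrane phospholipids when calcium rises. Anxa1 is known for its part in wound repair and in ending inflammation. Its log2 ratio was -0.01 and -0.04 at day 0, 0.66 and -0.21 at day 0.5, and 0.91 and 0.60 at day 1. The day 0.5 arrays disagreed in sign, and the lower day 1 array was under the higher day 0.5 array. The day 1 ratio of Anxa1 was 0.75 ± 0.20, or 1.69-fold (limma adjusted p = 0.0341), rank 655 of all genes. The call was lost without day 1 replicate 1 (0.56, adjusted p = 0.456), day 1 replicate 2 (0.94, adjusted p = 0.148) or either day 0 array (adjusted p = 0.0703). It was also lost with arrays scaled to equal spread (adjusted p = 0.0762).

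Anxa10, which in normal tissue is mostly a gene of the gastric lining, followed another course. Its log2 ratio was already 1.86 and 2.59 at day 0, dropped to 0.27 and 0.33 at day 0.5 and was 2.00 and 1.97 at day 1. The day 0 and day 1 arrays overlapped in range, and both day 0.5 arrays were far below them. The fitted values were 2.23 ± 0.17 at day 0 (4.68-fold, rank 10), 0.36 ± 0.20 at day 0.5 and 1.98 ± 0.17 at day 1 (3.95-fold). The ratio fell by 1.87 from day 0 to day 0.5 (SE 0.26) and then moved back up by 1.62 ± 0.26.

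Cldn4 encodes a claudin that seals tight junctions. Its log2 ratio was 0.40 and 0.94 at day 0, 0.38 and 0.67 at day 0.5, and 1.76 and 2.27 at day 1. It was above 0 on all 6 arrays without LiCl, and the day 1 arrays stood clear of the rest. The fitted day 1 value was 2.02 ± 0.18, or 4.04-fold, next to 0.67 ± 0.18 at day 0 and 0.63 ± 0.21 at day 0.5.

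Clu encodes clusterin, a secreted chaperone that marks the stem cells arising after irradiation of the mouse gut. Its log2 ratio was 0.03 and 0.18 at day 0, -0.64 and 0.04 at day 0.5, and -0.45 and 0.03 at day 1. The arrays of each later group disagreed, with replicate 1 the lower. At day 1 the fitted value was -0.21 ± 0.20 (limma adjusted p = 0.624), with a 95% interval from -0.69 to 0.27. That interval does not reach the day 1 values of Anxa1, Mal or F3. At day 0, 0 of the 4 marker genes passed in limma (1, F3, at an unadjusted p under 0.05), where 2.23% of all genes did.

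**Figure D1:**
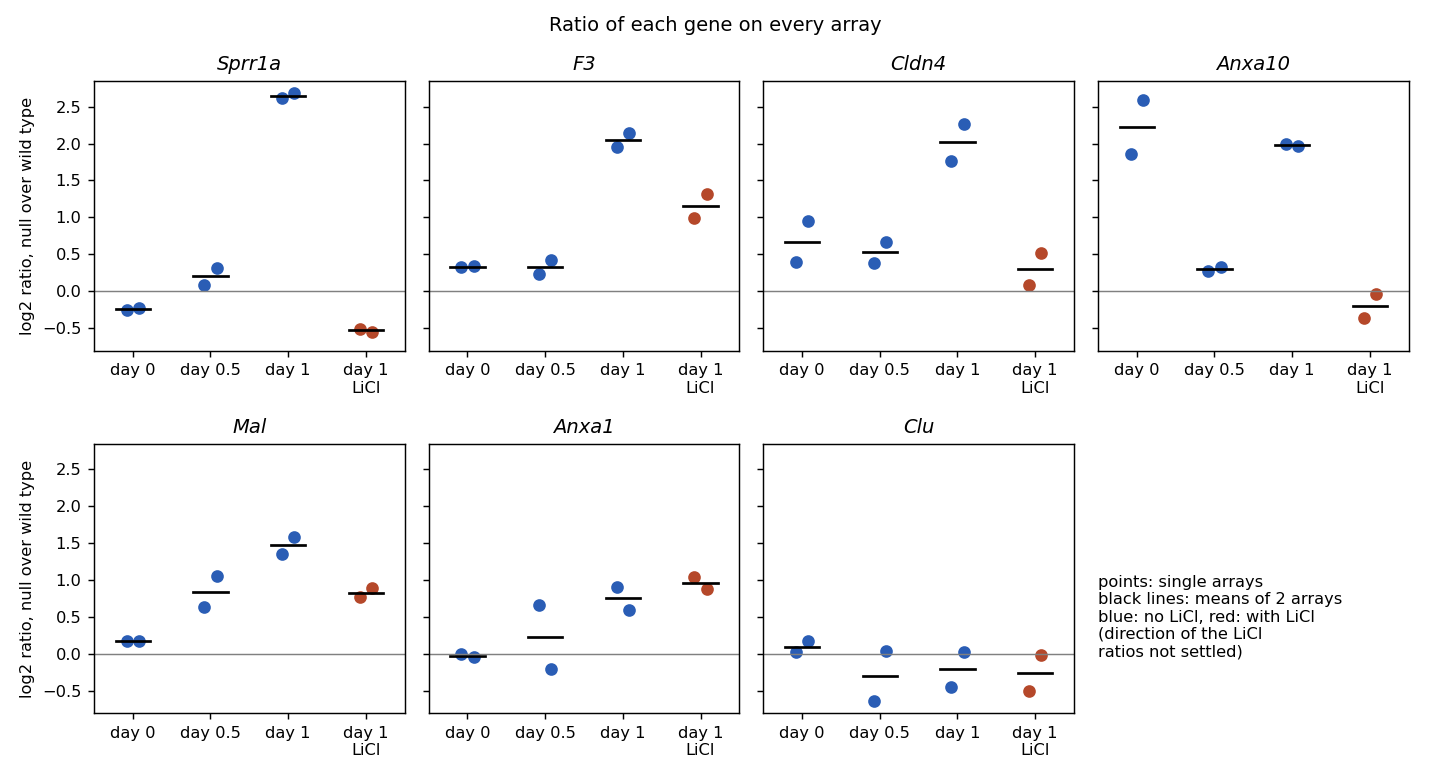
Log2 ratio of null over wild type (vertical axis) of the 7 measured genes on the 8 arrays, 1 point per array and a bar at the mean of each group, with the LiCl arrays at the sign as deposited. Sprr1a, F3, Cldn4, Anxa10 and Mal are above 1 on both day 1 arrays, Anxa10 is also high at day 0, and Clu lies between -0.64 and 0.18.

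With LiCl, the ratios of the 3 genes chosen as higher stayed between -0.55 and 0.52. For Sprr1a the fitted value was -0.53 ± 0.10, rank 14757 from the highest of 15123 genes. As deposited, Sprr1a read -0.51 and -0.55, Anxa10 -0.36 and -0.04, and Cldn4 0.08 and 0.52. All 6 values were well under the day 1 values of the same genes, and they stay so with the sign turned. F3 read 0.99 and 1.32, Mal 0.77 and 0.89, Anxa1 1.04 and 0.88, and Clu -0.50 and -0.01. As deposited, F3 and Mal were thus between their day 0 and day 1 arrays, and Anxa1 overlapped its day 1 arrays. With the sign turned, all 3 would be below 0.

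In the fit, F3 was 1.16 ± 0.12 with LiCl (limma adjusted p = 0.0122) and Mal 0.83 ± 0.13 (adjusted p = 0.0266), so 2 of the 4 marker genes passed, against 2.58% of all genes. With the sign turned the same values are negative, and both genes still passed (adjusted p = 0.00364 and 0.0122). The call of F3 was lost without LiCl replicate 1 (0.0897) or replicate 2 (0.112). That of Mal was lost without LiCl replicate 1 (0.157), LiCl replicate 2 (0.240) or either day 0 array (0.0789). Anxa1 was 0.96 ± 0.20 and did not pass (adjusted p = 0.0577). It passed when the replicate block was added (0.0173), when the dye term was dropped (0.0314), with day 0.5 as a dye swap (0.0298), without either day 0.5 array (0.0310), with the sign turned (0.0297) and with equal spread (1.47, 0.00506).

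From day 1 to day 1 with LiCl the ratio of F3 fell by 0.89 (SE 0.17, limma adjusted p = 0.00978), against 18.9% of all genes that changed. With the LiCl sign turned the difference was -3.20 (adjusted p = 0.000113). With the arrays scaled to equal spread it was 0.15 and did not pass (adjusted p = 0.849). The call was also lost without day 1 replicate 2 (-0.72, adjusted p = 0.102) or LiCl replicate 1 (-0.68, adjusted p = 0.0784). For Mal the difference was -0.64 ± 0.18 and just missed the threshold (adjusted p = 0.0505). It passed with the replicate block (0.0218) and with the sign turned (-2.30, adjusted p = 0.000865). Over the 15 alternatives with the sign as deposited the Mal difference reached 0.10 at the highest, and 14 kept its sign. For Anxa1 it was 0.20 ± 0.28 as deposited (adjusted p = 0.790) and -1.71 with the sign turned (adjusted p = 0.0111). Sprr1a differed by -3.18 ± 0.14 as deposited and by -2.12 with the sign turned.

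From day 1 to day 1 with LiCl, 18.9% of all genes changed in either direction, 2856 in the main fit and 3563 with the replicate block. Villus enterocyte genes fell as deposited, as F3 did and Anxa1 did not. In this comparison 5 of 7 were lower, with Krt20 at -1.95, Apoa1 at -1.90 and Fabp2 at -1.65, and with the replicate block all 7 were. With the LiCl sign turned 1 of 7 was, and without either day 1 array, or without LiCl replicate 2, 3 were. Their part in the values of the genes described was not tested.

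**Figure D2:**
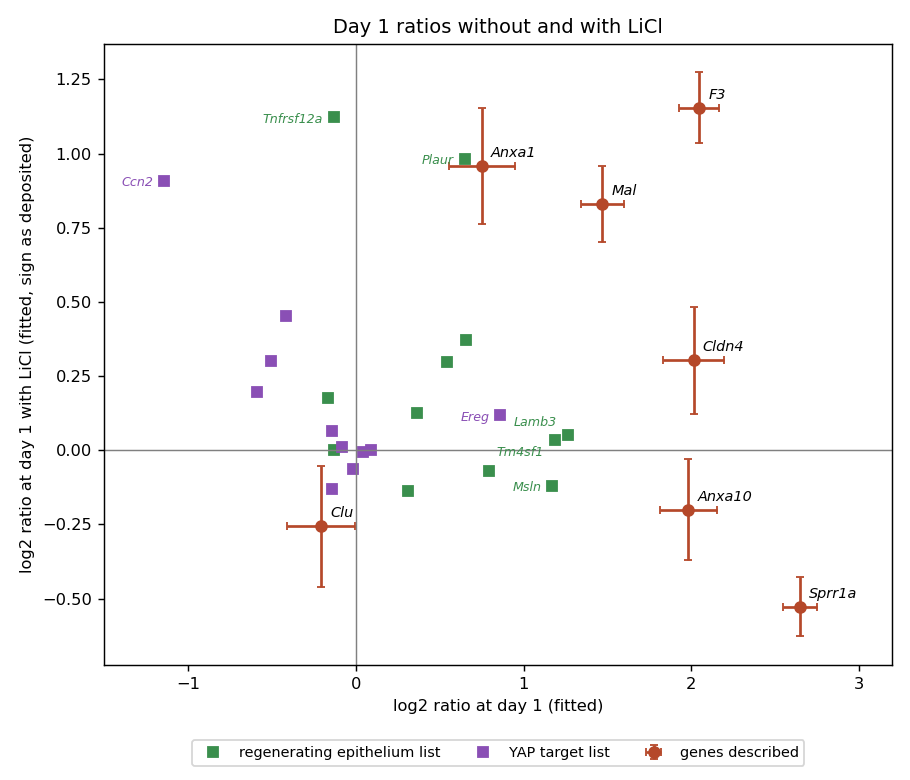
Fitted log2 ratio at day 1 (horizontal axis) against day 1 with LiCl, sign as deposited (vertical axis), for the 7 measured genes with limma standard errors and for the regenerating epithelium and YAP target lists without errors. Sprr1a lies at 2.65 and -0.53 and F3 at 2.05 and 1.16, so genes alike at day 1 differed in their LiCl values.

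The 250 bases before the annotated start are shown for the 4 members with the highest day 1 ratios, because each holds 2 matches to TGANTCA, the site bound by AP-1, a dimer of Fos and Jun proteins. The sequences are from RefSeq on GRCm38.p6 and run from 5′ to 3′ along the gene's own strand, with the matches in capitals. Sprr1a lies at chr3:92485882-92486131 (minus strand), F3 at chr3:121723287-121723536 (plus strand), Cldn4 at chr5:134946935-134947184 (minus strand) and Anxa10 at chr8:62123194-62123443 (minus strand).
Sprr1a: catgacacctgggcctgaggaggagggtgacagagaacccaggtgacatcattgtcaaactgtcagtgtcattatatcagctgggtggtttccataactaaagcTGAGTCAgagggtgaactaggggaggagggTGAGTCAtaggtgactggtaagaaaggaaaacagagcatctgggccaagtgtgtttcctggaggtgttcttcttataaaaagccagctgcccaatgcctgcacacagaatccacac
F3: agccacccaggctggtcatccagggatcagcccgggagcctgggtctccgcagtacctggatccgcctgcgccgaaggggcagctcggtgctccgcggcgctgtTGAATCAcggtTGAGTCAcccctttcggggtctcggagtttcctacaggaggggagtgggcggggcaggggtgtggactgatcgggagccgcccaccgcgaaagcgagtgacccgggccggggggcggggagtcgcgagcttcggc
Cldn4: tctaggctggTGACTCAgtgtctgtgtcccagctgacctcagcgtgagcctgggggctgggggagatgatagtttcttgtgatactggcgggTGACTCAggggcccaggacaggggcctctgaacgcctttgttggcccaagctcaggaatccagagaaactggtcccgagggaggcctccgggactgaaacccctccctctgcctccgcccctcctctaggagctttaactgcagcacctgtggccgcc
Anxa10: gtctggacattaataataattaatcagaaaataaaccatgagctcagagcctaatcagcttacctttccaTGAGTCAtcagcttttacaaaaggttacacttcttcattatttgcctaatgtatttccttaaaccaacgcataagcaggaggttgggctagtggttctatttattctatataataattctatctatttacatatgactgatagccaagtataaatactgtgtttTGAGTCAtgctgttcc

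The matches began 146 and 116 bases before the start in Sprr1a and 146 and 135 bases before it in F3, where the first reads TGAATCA. They began 240 and 158 bases before the start in Cldn4 and 180 and 16 bases before it in Anxa10. The windows of Mal and Anxa1 held no match, and RefSeq's table gave a window for 6 of the 8 genes. TGANTCA reads the same on both strands and stood in 6.75% of 32851 such windows, and 2 or more matches stood in 0.338% (111 windows). The motif was picked after these windows and the ratios had been seen, and the matches are a description of the letters only.

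Because the 4 genes shown led to the motif, its share over other genes is given without the members. Of 902 such genes with a match, 112 were higher at day 1 (12.4%), against 9.16% of those without one. Of the 33 with 2 or more matches, 5 were higher (15.2%), with a median of 0.06. GGAATG, the site of TEAD factors, searched on both strands, stood once in the windows of Mal and Anxa1 and in 12.6% of all windows. The 6 windows held no CTTTGAT (TCF/LEF, 3.21% of all windows), TGACGTCA (CREB, 1.55%), and no match to the interferon response (2.98%) or NF-kB (0.14%) motifs searched, on either strand.

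**Figure D3:**
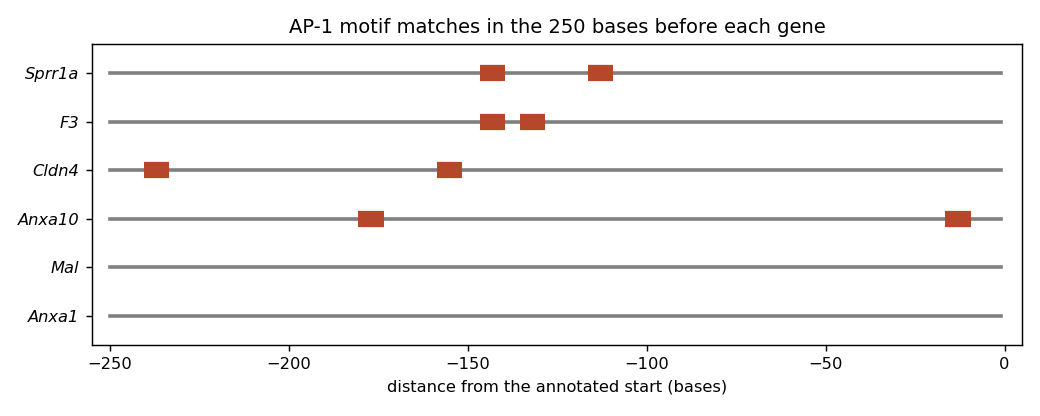
Positions of AP-1 motif matches (boxes) in the 250 bases before the annotated start of 6 genes, with the distance from the start in bases on the horizontal axis. Sprr1a, F3, Cldn4 and Anxa10 have 2 matches each, and Mal and Anxa1 have none.

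Among other genes known from regenerating epithelium, 6 of the 12 measured of 15 listed were higher in null crypts at day 1 and 0 lower. Their median was 0.60 against 0.00 for all genes, and with the replicate block 7 were higher. Over all genes, 9.38% passed as higher in the main fit, and calls in either direction rose from 3103 to 3829 with the block. Lamb3, a chain of the basement membrane protein laminin-332, was 1.26 ± 0.09 (limma adjusted p = 0.000262). Tm4sf1, a tetraspanin-like membrane protein, was 1.19 ± 0.14 (adjusted p = 0.00118), and Msln, a cell-surface glycoprotein of mesothelium, 1.17 ± 0.16 (adjusted p = 0.00232). Basp1 was 0.66 ± 0.10 (adjusted p = 0.00331). The count was 2 without day 1 replicate 1 and 3 without day 1 replicate 2. At day 0, 1 of the 12 passed, Emp1 at 0.88 ± 0.13 (adjusted p = 0.0261), where 2.23% of all genes did. Its call was lost without either day 0 array (0.415 and 0.391), without either day 0.5 array (0.0534) and with equal spread (0.103).

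On the YAP target list, 1 of 11 measured genes was higher in null crypts at day 1 and 4 were lower, where 11.1% of all genes passed as lower, and the median was -0.14. Ccn2, a matricellular protein and a standard YAP readout, was -1.14 ± 0.16 (limma adjusted p = 0.00245), Amotl2 -0.59 ± 0.15 (0.0274) and Ccn1 -0.50 ± 0.11 (0.0167). Ereg, an EGF receptor ligand, was 0.86 ± 0.10 (0.00125). The split was 0 higher and 0 lower when day 1 replicate 1 was left out, and 1 and 1 for day 1 replicate 2. The number lower was 2 without either day 0 array and with arrays scaled to equal spread. With LiCl as deposited, Ccn2 was 0.91 ± 0.16 (0.0346), and with the sign turned it would be -0.91. That call was lost without either LiCl array (0.165 and 0.303) or either day 0 array (0.0861).

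Of the annexins besides the 2 members, 6 of 10 were higher in null crypts at day 1 and 0 lower, with a median of 0.64. With the replicate block 7 were higher, and of all genes 9.38% passed as higher in the main fit. The block raised the calls over all genes, in either direction, from 3103 to 3829. Anxa8, an annexin of stratified epithelium, was 1.76 ± 0.14 (limma adjusted p = 0.000363) and Anxa5, the annexin used to stain dying cells, 1.495 ± 0.110 (0.000269). Anxa13, an intestinal annexin, was 1.11 ± 0.10 (0.000431), and Anxa2, the partner of S100a10, 1.00 ± 0.17 (0.00547). Anxa13 also passed at day 0.5, at 1.13 ± 0.11 (0.0141), but not with equal spread (0.0566) or without any 1 of the 6 arrays without LiCl (0.0536 to 0.0851). The day 1 count was 3 without either day 1 array.

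Of the tight junction genes besides Cldn4, 6 of 16 measured were higher in null crypts at day 1, where 9.38% of all genes were. None passed as lower, and the median was 0.26, with 12 of 16 above 0 and the lowest at -0.51. Cldn23 was 2.11 ± 0.17 (limma adjusted p = 0.000355), Cldn18, a claudin of stomach and lung, 1.56 ± 0.13 (0.000403), Cldn3 0.83 ± 0.18 (0.0171) and Ocln, which encodes occludin, 0.64 ± 0.11 (0.00591). Cldn7 (0.20 ± 0.19), Cldn2 (0.22 ± 0.09) and Cldn1 (0.13 ± 0.13) did not pass. Leaving out either day 1 array gave 2, and scaling to equal spread 3.

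Of the cornified envelope genes besides Sprr1a, 3 of 16 measured were higher in null crypts at day 1, where 9.38% of all genes were. None was lower, and the median was 0.06. The 3 were Evpl, which encodes envoplakin (0.87 ± 0.12, limma adjusted p = 0.00286), the stress keratin Krt6a (0.56 ± 0.11, 0.0116) and Sprr2f (0.53 ± 0.14, 0.0400). The count was 0 and 1 without day 1 replicates 1 and 2, and 5 with the replicate block. That block raised the calls over all genes, in either direction, from 3103 to 3829. Sprr2 genes are near-identical copies, so their probes may share signal.

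Ly6a was not measured. Of 7 measured genes on the Ly6 family list, 1 was higher and 1 lower at day 1, where 20.5% of all genes passed in either direction. Ly6d, a surface protein of squamous cells, was 1.36 ± 0.11 at day 1 (limma adjusted p = 0.000363) and Ly6e -0.65 ± 0.10 (0.0035). Without day 1 replicate 1 Ly6e was -0.56 and did not pass (0.117). Ly6e was also lower at day 0 (-0.67 ± 0.10, 0.0222), though not without either day 0 array (0.403 and 0.360) or with equal spread (0.0523). These relatives say nothing of Ly6a itself.

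Of 8 measured genes of coagulation besides F3, 2 were higher in null crypts at day 1, where 9.38% of all genes were, and the median was -0.07. They were Plat (1.34 ± 0.11, limma adjusted p = 0.000363), the tissue plasminogen activator, and Plaur (0.65 ± 0.12, 0.00884), the urokinase receptor. The count was 1 without either day 1 array. Of 8 genes of the Mal family and lipid rafts, 3 were higher and 1 lower, with a median of 0.04. Among all genes 9.38% passed as higher and 11.1% as lower. Mall, a close relative of Mal, was 2.07 ± 0.19 (0.000477), Flot1 0.81 ± 0.13 (0.00536), Mal2 0.53 ± 0.14 (0.0368) and Plp2 -0.90 ± 0.15 (0.0052). The number higher was 2 and 1 without day 1 replicates 1 and 2.

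The nearest protein-coding genes in RefSeq's gene order, up to 2 on each side, gave a mixed picture at day 1. Those of Sprr1a on chromosome 3 were near 0, with Sprr1b at -0.09, Sprr3 at 0.05, Sprr4 at 0.06 and Ivl, which encodes involucrin, at 0.02. Beside Anxa1 on chromosome 19 lie Aldh1a1 (1.31) and Aldh1a7 (1.36), aldehyde dehydrogenase genes that are close copies, and Rorb (0.04) and Trpm6 (-0.09). Beside F3 on chromosome 3 were Slc44a3 (0.71), Abcd3 (0.75) and Arhgap29 (-0.21). Cldn4 on chromosome 5 has Cldn3 (0.83), Abhd11 (-0.61), Mettl27 (-0.20) and Cldn13 (0.01) around it, and Mal on chromosome 2 has Mall (2.07), Mrps5 (-0.57) and Zfp661 (-0.06). Ly6a on chromosome 15 has Ly6e (-0.65), Ly6i (0.05) and Ly6c1 (-0.06). The neighbours of Clu lay between -0.08 and 0.15, and of those of Anxa10 only Spock3 (0.12) was measured.

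**Figure D4:**
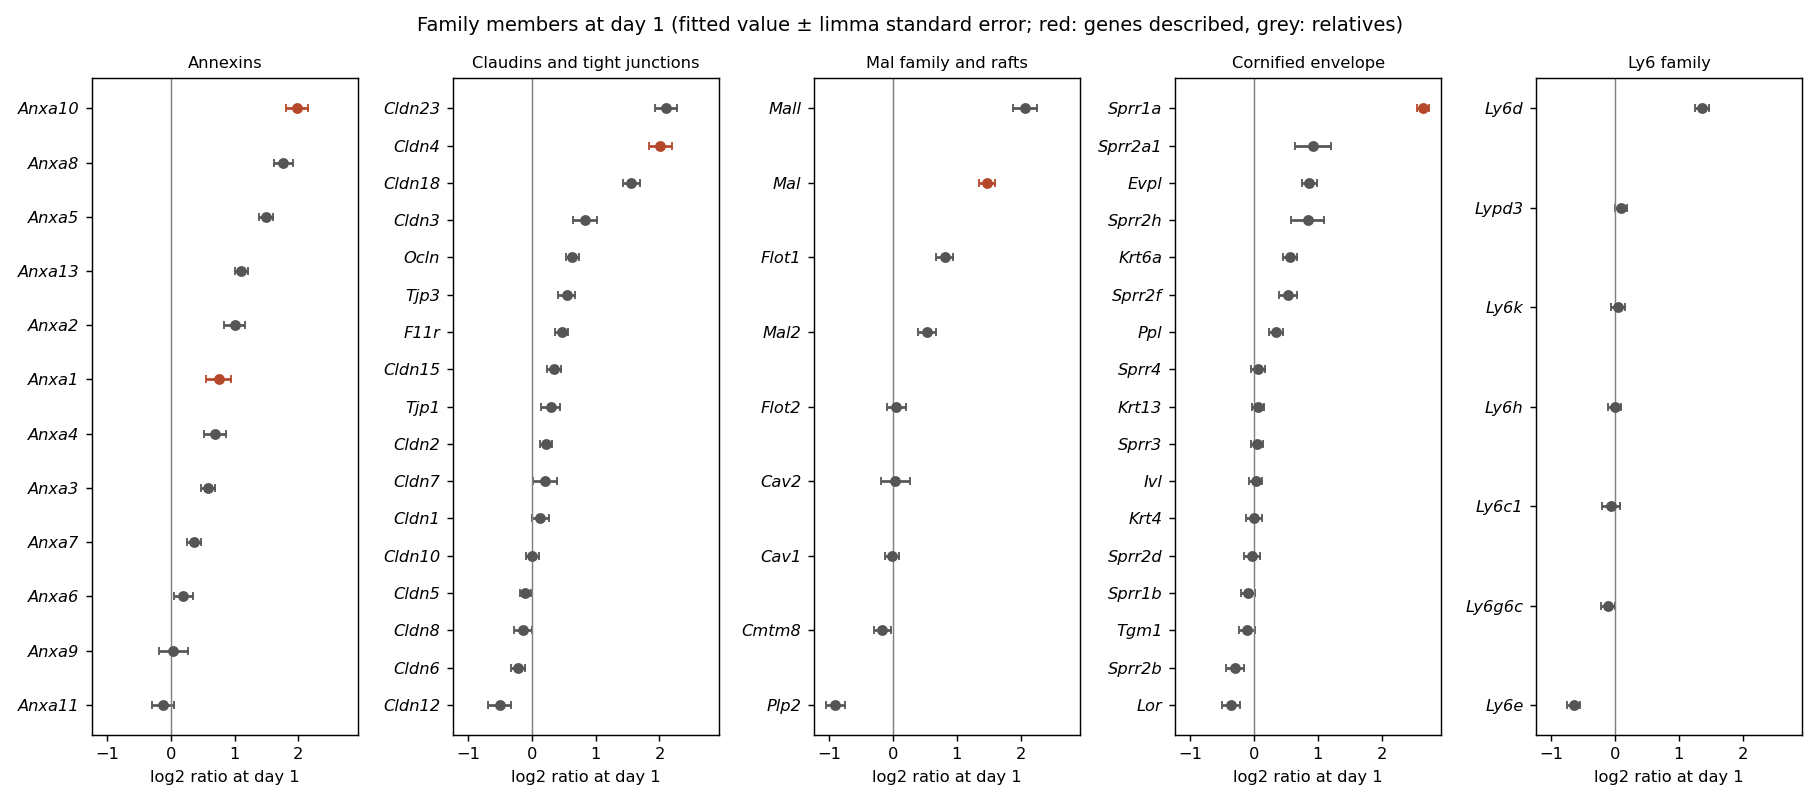
Fitted log2 ratio at day 1 (null over wild type, horizontal axis) of each gene of 5 families, with limma standard errors, the members in red and their relatives in grey. Anxa10 (1.98) and Anxa8 (1.76) lead the annexins and Cldn23 (2.11) and Cldn4 (2.02) the claudins, while cornified envelope genes besides Sprr1a stay below 1.

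Several lists of cell type markers also held genes that passed. Over all genes, 9.38% passed as higher at day 1, and calls in either direction rose from 3103 to 3829 with the replicate block. At day 1, 4 of 7 villus enterocyte genes were higher, with Krt20 at 1.43 and Apoa1 at 1.19 and a median of 0.81, and all 7 were with the replicate block. At day 1 the gastric list had 3 of 9 genes higher, with Tff1 at 1.75, Ctse at 0.89 and Gkn2 at 0.74. Of 8 genes of crypt and general epithelium 4 were higher (Vil1 1.32, Krt19 0.84, Krt18 0.51 and Cdx2 0.47), and 6 with the replicate block. Without day 1 replicates 1 and 2 the counts were 3 and 2 for villus, 1 and 2 for gastric, and 1 and 2 for epithelial genes. Whether these lists share in the day 1 values of the genes described was not tested.

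At day 1, where 20.5% of all genes passed in either direction, mesenchymal genes passed in 1 of 10 cases. This was Vim at 1.02 ± 0.10, and the other 9 lay between -0.14 and 0.24. Endothelial genes lay between -0.20 and 0.28, lymphocyte genes between -0.24 and 0.11, and 0 of 8 passed in either list and 0 of 4 among myeloid genes, in limma with or without adjustment at 0.05. Interferon response genes passed in 1 of 7 cases. At day 0, when Anxa10 was already high and 2.23% of all genes passed, lymphocyte genes were lower in 5 of 8 cases (median -0.92). All 7 villus enterocyte genes were above 0, and 1 passed, Ada at 2.51 ± 0.17. Of 7 interferon response genes, 2 were higher (Rsad2 1.40 and Ifit3 1.20), and 3 with the replicate block, where calls over all genes rose from 337 to 610. Among 4 myeloid genes Cd14 alone was higher (1.06). Mesenchymal genes were lower in 2 of 10 cases (Vim -0.58 and Dcn -0.51), and in 0 with arrays scaled to equal spread. Without either day 0 array 0 of these lymphocyte, interferon and myeloid genes passed, and neither did Ada (0.0627 and 0.0715). Their part in the day 0 value of Anxa10 was not tested.

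The genes whose ratios ran most like each member over the 8 arrays were found by Pearson's r, among genes with at least 0.5 of the member's range. The arrays share groups and the r values carry no test. They are given with LiCl as deposited, and again over the 6 arrays without LiCl, where the order of the genes can differ. Sprr1a was closest to Cbr3 (r = 0.992, and 0.996 without LiCl), Ehd1 (0.989 and 0.998) and Cyp1a1 (0.980 and 0.976). Cbr3 is a carbonyl reductase and Cyp1a1 a cytochrome P450 that is induced through the aryl hydrocarbon receptor. Cyp1a1 read 2.87 and 2.56 on the day 1 arrays.

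F3 was closest to Prl2c3 (0.985, and 0.987 without LiCl), Ly6d (0.981 and 0.997) and Prl2c2 (0.978 and 0.983), where both Prl2c genes belong to the prolactin family and are near-identical copies. Prl2c3 read 3.58 and 3.93 at day 1 and 1.98 and 2.23 with LiCl as deposited, the same order as F3. Cldn4 was closest to Mfge8 (0.986 both ways), Cyp4f14 (0.975 and 0.986) and Plekhg6 (0.971 and 0.986). Mal was closest to Laptm5 (0.985 and 0.986), Cnn2 (0.985 and 0.992) and Atf5 (0.982 and 0.994). Anxa10 was closest to Car4 (0.970 and 0.965), Oasl1 (0.958 and 0.933) and Slc52a3 (0.953 and 0.963). Car4, a membrane-bound carbonic anhydrase of enterocytes, read 2.49 and 3.08 at day 0, 0.24 and 0.95 at day 0.5, and 2.04 and 2.40 at day 1. Anxa1 was closest to Cd74 (0.931 and 0.897), Nmt2 (0.914 and 0.873) and Ildr1 (0.905 and 0.938), and with the LiCl sign turned r was -0.12 for Cd74, 0.66 for Nmt2, and, against Mal, 0.38 for Laptm5 and 0.75 for Atf5. The other genes named kept r from 0.80 to 0.99 with the sign turned. Clu had a range under 1, and no genes were sought for it.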

How the data were processed

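The authors deposited 1 log ratio per probe and array, taken here as log2, for 38467 probes of a 2-colour mouse oligonucleotide array. How the ratios were background-corrected and normalized, and their log base, is not given in the sources used here. Columns of other series numbered 0. Per the labels, Cy5 marked the null RNA on replicate 1 at day 0 and at day 1, on both arrays at day 0.5 and on LiCl replicate 2. Cy3 marked it elsewhere. The series text speaks of a dye swap, against the labels of day 0.5, so a swap there was run as an alternative. In the platform annotation 22941 probes had 1 symbol and 15526 had none, and 0 symbols changed against RefSeq. Control series probes were left out (636 of them named). The remaining 22305 probes covered 15123 genes, and probes of a gene were averaged.

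Medians of the arrays were set to 0. One model over the 8 arrays (limma 3.58.1, R 4.3.3) held a mean per group and the dye of the null RNA, and eBayes added 4.09 prior to 3 residual degrees of freedom. The threshold was 0.05 for p adjusted over all 15123 genes by Benjamini-Hochberg. Because of the dye, fitted values at day 0.5 differ from the plain means. Promoter windows were searched in Python 3.11.15 (pandas 2.3.3, numpy 2.4.6), and figures were drawn with matplotlib 3.10.9.

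Replicate numbers met the rule for pairing, since deviations of replicate 1 from 2 correlated between all 6 pairs of groups (r from 0.21 to 0.278), a pairing seen in the values and not in the labels. The main fit has no replicate block, and blocked values stand beside results whose call the block changes.

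The members, the 8 related lists and the 8 cell type lists were chosen with earlier results of these data known. Named were all members, in each related list at most 4 genes with the largest fitted values among those that passed, and for each member with a range of at least 1 over the arrays the 3 genes of highest r. Cldn7, Cldn2, Cldn1, Lyz1, the measured neighbours of the members and the cell type markers were named besides, after their values were seen. Alternatives were no dye term, day 0.5 replicate 2 as a dye swap, the replicate block, equal spread, no centring, the median of probes, control probes kept, no LiCl arrays, the LiCl sign turned and each array left out.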

Additional observations from a re-analysis of the deposited data

Results flagged for a closer look

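The ratios of 2 marker genes differed between groups by a test of the difference. Between day 0.5 and day 1, F3 changed by 1.75. Between day 0 and day 1, F3 changed by 1.72 and Mal by 1.30. Between day 1 without and with LiCl, F3 changed by -0.89, with the LiCl sign as deposited, and by -3.20 with it turned.

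For 2 genes chosen on their values, both arrays of one group lay above 0 and both of another below it, and the difference was not tested. Sprr1a differed by 0.45 between day 0 and day 0.5 and by 2.89 between day 0 and day 1. With LiCl as deposited it differed by -0.73 from day 0.5 and by -3.18 from day 1, and with the sign turned by 0.33 and -2.12, so the first of these turns with the sign. Anxa10 differed with LiCl as deposited by -2.43 from day 0, -0.50 from day 0.5 and -2.18 from day 1, and with the sign turned by -2.03, -0.10 and -1.78. With the sign turned, the LiCl arrays of both genes are above 0, as are the arrays of the groups they are set against here.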

How the results depend on the processing

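Of the 4 marker genes tested, 0 passed at day 0, 0 at day 0.5, 3 at day 1 and 2 with LiCl. The change between day 0 and day 0.5 had 0, between day 0.5 and day 1 it was 1, between day 0 and day 1 it was 2, and between day 1 and LiCl 1. With LiCl, 3 passed with no dye term, the dye swap, the replicate block, equal spread or the sign turned. At day 0.5, 1 passed with no dye term, with the dye swap or with the replicate block. Of the changes up to day 1, 0 passed (from day 0.5) and 0 (from day 0) with arrays scaled to equal spread. From day 1 to LiCl, 2 passed with no dye term, the dye swap or the replicate block, 0 with equal spread and 3 with the LiCl sign turned. Leaving out 1 array gave 0 to 0 at day 0, 0 to 0 at day 0.5, 2 to 3 at day 1 and 0 to 3 with LiCl. For the changes it gave 0 to 0, 0 to 1, 0 to 3 and 0 to 2 in the order above. With the LiCl sign turned, F3 with LiCl was -1.16 and Mal -0.83, and with equal spread the change of F3 from day 1 to LiCl was 0.15. The replicate block changed the calls of Mal at day 0.5 and from day 1 to LiCl and of Anxa1 with LiCl, and no other call of the 4 marker genes. The cause of these shifts was not tested.

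Genes called over all 15123 were 337 at day 0 (610 with the replicate block, 160 with equal spread, 26 to 305 with 1 array left out) and 66 at day 0.5 (341 with no dye term, 321 with the dye swap, 237 with the block, 24 with equal spread, 9 to 50). They were 3103 at day 1 (2029 with equal spread, 912 to 3270) and 390 with LiCl (922 with the block, 1653 with equal spread, 743 turned, 4 to 301). Between day 0 and day 0.5 they were 20 (116 with no dye term, 82 with the dye swap, 56 with the block, 0 with equal spread, 0 to 16). For the changes up to day 1 they were 301 from day 0.5 (611 with no dye term, 577 with the dye swap, 633 with the block, 0 with equal spread, 0 to 287) and 1269 from day 0 (1964 with the block, 493 with equal spread, 110 to 1358). Between day 1 and LiCl they were 2856 (1033 turned). With the block, 3829 were called at day 1 and 3563 between day 1 and LiCl.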
